A study of Canis lupus familiaris with 29 samples.

Results

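Gene expression at day 3 and at 24 h of three-dimensional (3D) culture was compared in wild-type MDCKII cells, a dog kidney epithelial line. The comparison rests on 4 of the 29 RNA-sequencing libraries of the study, 2 from day 3 (replicates 1 and 2) and 2 from 24 h (replicates 2 and 3), which were taken by their titles, genotype and culture time. All 4 came from unmodified cells grown on matrigel, a basement membrane extract on which these cells form cysts, and none carried the knockdowns used elsewhere in the study. Of 24223 dog genes in the deposited tables, the 10731 with at least 1 FPKM (fragments mapped to a gene, scaled by its transcript length and by the library's total) in at least 2 of the 4 libraries were tested. A gene under 1 FPKM in both libraries of a group passed this filter only through the other group, so its direction was fixed in advance. CDH16, TMEM27, LGALS4 and OSGIN1, named later, are such genes. In all, 1343 of the tested genes lack a unique symbol and enter the counts alone. No label states that the replicates came from different cultures, and the p-values then rest on library-to-library spread, which may be technical. That spread was estimated over all 29 libraries, the knockdown groups included. Titles number the libraries of a knockdown group as separate knockdowns, so their spread may hold more than that of replicates.

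On a basement membrane extract, kidney epithelial cells divide, orient their apical surface towards a shared lumen and build a single-layered cyst. Polarity complexes, junctions and apical trafficking set up the lumen, ion transporters fill it, and cells that leave the cell cycle grow a primary cilium, a sensory antenna made by intraflagellar transport. The interval between 24 h and day 3 is a step of cyst formation, and the comparison asks which of these programmes moved in it.

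Day 3 replicate 1 was the shallowest of the 4 libraries and the most uneven. Its depth relative to a day 0 library, read from the steps between low FPKM values, was 0.582, against 0.862 in day 3 replicate 2 and 0.901 and 1.02 in the 24 h libraries. Absolute depth is unknown. The 10 highest genes took 29.9% and 21.3% of total FPKM in the day 3 libraries and 12.5% and 15.4% in the 24 h libraries. The 13 mRNAs encoded by mitochondrial DNA made up 28.4% and 17.9% of total FPKM at day 3 and 12.6% and 15.6% at 24 h. They are part of every library's total, and their part in the other differences was not tested. The day 3 libraries differed from each other by more than 1 on the log2(FPKM + 1) scale in 245 genes, and the 24 h libraries in 70. In 16 genes, replicate 1 was listed at 0 while replicate 2 held at least 10 FPKM, among them TIMM13 (0 and 193 FPKM at day 3, 155 and 85 FPKM at 24 h), and none of these was called. An exact 0 in these files may be a failed estimate. Epithelial markers summed to 1413 and 1395 FPKM at day 3 and 1431 and 1573 FPKM at 24 h over the 10 of 12 in the files. A sum can hide changes of single members: 3 of these 10 were called lower at day 3 and none higher. Their median log2 difference was -0.18, and the share called was 30%, against 37.3% of all genes. Of 9 fibroblast markers, 8 stayed under 1 FPKM in all 4 libraries, as did 9 of 10 endothelial and 8 of 9 leukocyte markers, with FAP, TEK, EMCN, CD3E, ITGAM and SPI1 listed at 0 in all 4. The exceptions were FBLN1, FLT1 and CD74. The fibroblast sum was 8.24 and 7.92 at day 3 and 8.83 and 10.1 at 24 h (FPKM), the endothelial sum 10.3 and 10.1 at day 3 and 24.2 and 24 at 24 h, and the leukocyte sum 498 and 519 at day 3 and 443 and 386 at 24 h.

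At day 3, against 24 h, 32 of 47 primary cilium genes and 5 of 10 retinoid genes were higher and none of either list lower, and tubular transport genes moved both ways, with 8 of 21 higher and 5 lower. Of 26 mitosis genes 17 were lower, of 26 DNA replication genes 18, of 18 NF-kB targets and cytokines 14 and of 21 cholesterol synthesis genes 10, and none of these lists had a member called higher. With limma on log2(FPKM + 1), 4003 genes passed an adjusted p of 0.05, 1895 higher (17.7%) and 2108 lower (19.6%), together 37.3% of the genes tested. Differences were moderate for most: 470 called genes lay above 1 and 357 below -1 on the log2 scale, and the median over all genes was -0.03. In bulk RNA, a change in the share of cells that express a gene and a change in the RNA per cell cannot be told apart. Log2 differences are of FPKM + 1 and understate the change of low genes.

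**Figure D1:**
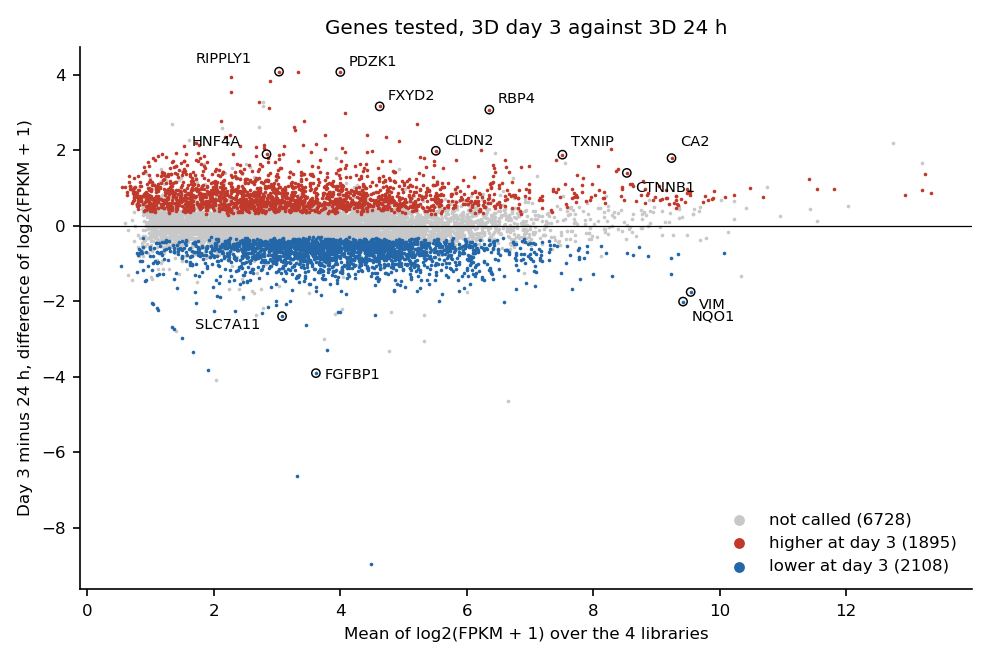
Each point is 1 of the 10731 genes tested, with its mean log2(FPKM + 1) over the 4 libraries on the x axis and the difference day 3 minus 24 h on the y axis. Red points were called higher at day 3 (1895), blue points lower (2108) and grey points were not called (6728), and the labelled genes are circled.

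The replicates were then checked one by one. Without the shallow day 3 replicate 1, 2518 genes passed, 1184 higher (11%) and 1334 lower (12.4%). Of the 4003 genes called with all libraries, 2469 (61.7%) were called the same way without it and 2773 without day 3 replicate 2, and no called gene turned its sign without either. Without 24 h replicate 2 the count was 2367 (951 higher and 1416 lower), and without 24 h replicate 3 it was 2793 (1521 higher and 1272 lower), so the larger side depended on which 24 h library was used. The pairs with no library in common, day 3 replicate 1 with 24 h replicate 2 and day 3 replicate 2 with 24 h replicate 3, gave the same sign in all 4003 called genes and in 8837 of the 10731 tested. All but 1 of the called genes had no overlap between the groups, against 75.2% of all genes tested (35.1% higher and 40.1% lower). A gene without overlap keeps its sign in any pair or with a library left out. The signs of the called genes are thus no separate check. Below, the counts in parentheses after a list are the range when each of the 4 libraries is left out in turn. List counts with all libraries are to be read against 17.7% of all genes higher, 19.6% lower and 37.3% called.

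**Figure D2:**
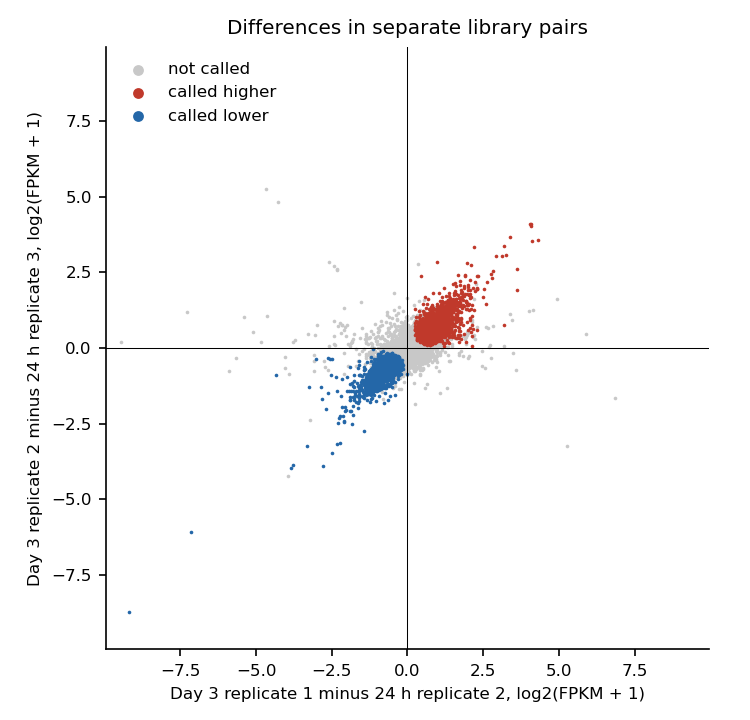
Each point is a gene tested, with the log2(FPKM + 1) difference of day 3 replicate 1 minus 24 h replicate 2 on the x axis and of day 3 replicate 2 minus 24 h replicate 3 on the y axis. The called genes lie in the upper right (higher at day 3) and lower left (lower at day 3), and the grey points far from 0 along the x axis differed in the first pair more than in the second.

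The largest increases were in genes of varied function, among them an apical scaffold, a sodium pump subunit and a retinol carrier. PDZK1, a PDZ scaffold that anchors apical transporters, had 80.4 and 51.9 FPKM at day 3, against 3.92 and 2.09 FPKM at 24 h (log2 difference 4.07 ± 0.99, SE, adjusted p = 0.00323). FXYD2, the gamma subunit of the sodium pump, had 68.3 and 77.3 FPKM at day 3 and 6.27 and 8.34 FPKM at 24 h (3.16 ± 0.68, adjusted p = 0.00127). In both genes the day 3 libraries stood far above the 24 h libraries.

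RIPPLY1, a transcriptional corepressor, had 35 and 30.4 FPKM at day 3 and 1.13 and 0.85 FPKM at 24 h, the largest increase among the named genes (4.08 ± 0.80, adjusted p = 0.000611). PPP1R1B, an inhibitor of protein phosphatase 1, had 33.3 and 21.6 FPKM at day 3 and 0.991 and 0.95 FPKM at 24 h (3.82 ± 0.40, adjusted p = 2.67e-06). RENBP, a renin-binding protein and epimerase of amino sugars, had 20.4 and 20.9 FPKM at day 3 and 0.758 and 2.55 FPKM at 24 h (3.12 ± 0.28). SAMD11 (3.28 ± 0.35) and RIIAD1 (2.61 ± 0.58) were among the 12 largest increases as well. APOBEC1, the cytidine deaminase that edits apolipoprotein B mRNA, held 92.2 and 93.7 FPKM at day 3 and 12.1 and 15.2 FPKM at 24 h (2.69 ± 0.25). CD24, a small surface glycoprotein, was the most uneven of the group, with 19.9 and 5.11 FPKM in the 2 day 3 libraries and 0.689 and 0.628 FPKM at 24 h (2.77 ± 0.60, adjusted p = 0.00136).

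The largest decrease among genes above 0 in all 4 libraries was in FGFBP1, a secreted carrier that releases fibroblast growth factors from the matrix. It held 2.07 and 2.27 FPKM at day 3, against 42.9 and 49.9 FPKM at 24 h (-3.90 ± 0.69, adjusted p = 0.00027). SLC7A11, the cystine importer, had 3.17 and 2.26 FPKM at day 3 and 19.6 and 17.2 FPKM at 24 h (-2.39 ± 0.28). RAP2B, a small GTPase of the RAS family, had 7.11 and 12.3 FPKM at day 3 and 52 and 52.4 FPKM at 24 h (-2.36 ± 0.27). All 3 were low in both day 3 libraries, and the rule that picked them required groups without overlap. FOSL1, PTGS2, CCL2, FST, CSF2, LOX, DHRS2, KRT80 and RSAD2 completed the 12, with log2 differences of -2.30 to -2.05. Of these, CCL2 had an adjusted p of 0.198 without 24 h replicate 2 and 0.19 without day 3 replicate 1, and DHRS2 one of 0.0701 without 24 h replicate 3 and 0.062 without day 3 replicate 2.

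**Figure D3:**
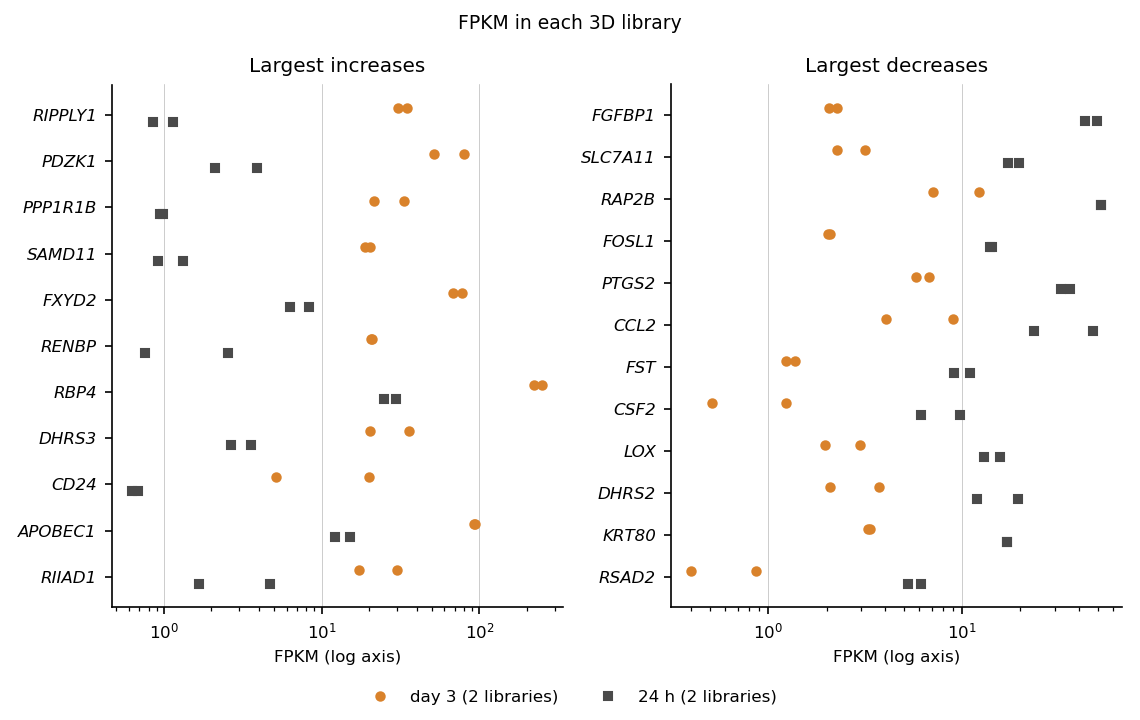
FPKM on a log axis in each day 3 library (orange circles) and each 24 h library (grey squares) for named genes among the 12 largest increases (left) and the 12 largest decreases (right). By the rule that picked the genes, the groups do not overlap in any gene shown. CD24 shows the widest gap between the 2 day 3 libraries on this axis, with CSF2 next.

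Genes of the apical membrane rose in 6 of 17 tested members and fell in 2 (4 to 5 and 2 with a library left out). The share called was 47.1%, against 37.3% of all genes. Besides PDZK1 and CD24, USH1C, the harmonin scaffold of microvilli, held 21 and 21.7 FPKM at day 3 and 3.42 and 4.79 FPKM at 24 h (2.14 ± 0.43, adjusted p = 0.000748). TMEM27, also called collectrin, had 3.32 and 1.85 FPKM at day 3 and 0.11 and 0.0651 FPKM at 24 h (1.69 ± 0.30). EPS8L2, an actin regulator of microvilli and stereocilia (-0.89 ± 0.17), and the membrane receptor GPRC5A (-1.18 ± 0.27) fell. PODXL, the sialomucin that marks the apical domain of early cysts, had 49.4 and 52.6 FPKM at day 3 and 80.3 and 68.4 FPKM at 24 h (-0.53 ± 0.29, adjusted p = 0.148), which passed only when the 4 libraries were fitted alone (adjusted p = 0.0209). EZR, the ezrin linker of membrane and actin, had 171 and 193 FPKM at day 3 and 196 and 206 FPKM at 24 h (-0.15 ± 0.17, adjusted p = 0.522).

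Apical trafficking genes moved in both directions, with 9 of 31 higher and 7 lower (5 to 8 and 3 to 5). The counts were 5 higher and 4 lower without 24 h replicate 2, 8 and 3 without 24 h replicate 3 and 7 and 3 without day 3 replicate 1. SYTL2, a RAB27 effector that docks apical vesicles, had 14.2 and 14 FPKM at day 3 and 4.34 and 4.96 FPKM at 24 h (1.42 ± 0.26, adjusted p = 0.000386). LGALS4, a lectin of apical sorting (1.40 ± 0.15), ANXA13, an apical annexin (1.00 ± 0.24), and VAMP7, an apical SNARE (0.66 ± 0.15), rose too. RAB11FIP1, an effector of RAB11 recycling endosomes, fell (-0.68 ± 0.17). The DENN domain genes of the study did not pass. DENND5A had 4.36 and 5.16 FPKM at day 3 and 5.25 and 5.3 FPKM at 24 h (-0.13 ± 0.15, adjusted p = 0.51), and AVL9 had 18.4 and 19.2 FPKM at day 3 and 20.01 and 22.3 FPKM at 24 h (-0.16 ± 0.17, adjusted p = 0.462).

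Polarity genes were called lower in 6 of 14 members and higher in 1, with a median difference of -0.24 (5 to 6 lower and none higher with a library left out). LLGL2, a basolateral polarity protein, had 28.8 and 28.2 FPKM at day 3 and 49.8 and 48.1 FPKM at 24 h (-0.76 ± 0.13, adjusted p = 0.000242). The kinase MARK2 (-0.72 ± 0.13), the apical junction scaffold PARD3 (-0.68 ± 0.13), the kinase STK11 (-0.60 ± 0.14) and the basolateral scaffold SCRIB (-0.48 ± 0.12) fell as well. These differences were smaller than those of the apical genes with the largest increases, such as PDZK1, CD24 and USH1C. The list medians were closer in size, at -0.24 here and 0.275 for the apical membrane list.

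Junction genes moved in both directions. CLDN2, the claudin that forms cation and water pores, had 94.8 and 85 FPKM at day 3 and 21.9 and 21.9 FPKM at 24 h (1.99 ± 0.34, adjusted p = 0.000201). CLDN16, the claudin of magnesium reabsorption (1.34 ± 0.32), ILDR1, an angulin of tricellular junctions (0.94 ± 0.18), and TJP3, the ZO-3 scaffold (0.66 ± 0.12), rose, while TJP1, the ZO-1 scaffold, fell (-0.71 ± 0.14). Of 19 tight junction genes, 4 rose and 2 fell (4 and 1 with any of the 4 libraries left out), a share of 31.6% called, against 37.3% of all genes. Among 22 adherens junction and desmosome genes 4 rose and 8 fell (3 to 4 and 4 to 5, with 4 lower without day 3 replicate 1 or 24 h replicate 2 and 5 without either other library). CTNNB1, beta-catenin, which links cadherins to actin and also carries Wnt signals, had 622 and 579 FPKM at day 3 and 225 and 229 FPKM at 24 h (1.40 ± 0.17, adjusted p = 9.01e-06). CDH1, E-cadherin, moved the other way, with 115 and 105 FPKM at day 3 and 194 and 184 FPKM at 24 h (-0.78 ± 0.19, adjusted p = 0.0032). CDH16, kidney-specific cadherin, rose to 3.7 and 3.52 FPKM at day 3, against 0.483 and 0.352 FPKM at 24 h (1.70 ± 0.41, adjusted p = 0.00316). The desmosomal genes PKP3 (-0.69 ± 0.15) and DSG2 (-0.65 ± 0.14) fell, and EVPL, a desmosome-linked envelope protein, rose (1.01 ± 0.22).

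Primary cilium genes rose in 32 of 47 tested members and none fell, against 17.7% and 19.6% of all genes. The median difference was 0.73, and in 40 members both day 3 libraries lay above both 24 h libraries, against 35.1% of all genes. TMEM67, the transition zone protein meckelin, had 9.02 and 7.33 FPKM at day 3 and 2.58 and 3.6 FPKM at 24 h (1.17 ± 0.13, adjusted p = 3.57e-06). ARL3, a GTPase that releases lipidated cargo inside the cilium, had 68.2 and 87.8 FPKM at day 3 and 21.6 and 27.7 FPKM at 24 h (1.62 ± 0.22). TMEM237 (1.20 ± 0.17) and TCTN1 (1.13 ± 0.16), both of the transition zone, rose as well. The largest log2 difference of a called member was 2.34, in FOXJ1, the master factor of motile cilia. The motor subunit KIF3A did not pass, with 4.12 and 4.18 FPKM at day 3 and 4.67 and 4.67 FPKM at 24 h (-0.14 ± 0.12, adjusted p = 0.392). With a library left out, 23 to 31 members were higher and none lower. The median per library was 0.74 and 0.72 above the 24 h mean in the 2 day 3 libraries, so each day 3 library alone gave about the same value.

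Genes of cell division fell. Of 26 mitosis genes 17 were lower and none higher (8 to 12 lower), with a median of -0.77, and of 26 DNA replication genes 18 were lower and none higher (12 to 18), with a median of -0.68. The mitosis count was 8 without 24 h replicate 3 and 10 without day 3 replicate 2, and the lowest replication count was 12 without day 3 replicate 2. POLA1, the catalytic subunit of the primase-linked DNA polymerase, had 7.5 and 7.21 FPKM at day 3 and 18.9 and 18.4 FPKM at 24 h (-1.23 ± 0.15, adjusted p = 1.09e-05). UHRF1, which maintains DNA methylation at replication forks (-1.39 ± 0.15), MCM10 (-1.22 ± 0.18) and CDT1 (-1.04 ± 0.18), both of replication origins, and the ligase LIG1 (-0.67 ± 0.12) fell too. KIF23, a kinesin of cytokinesis, had 14.4 and 14.1 FPKM at day 3 and 33.3 and 37.6 FPKM at 24 h (-1.26 ± 0.25, adjusted p = 0.000704). ANLN (-1.21 ± 0.23) and PRC1 (-0.999 ± 0.20), of the cleavage furrow and midzone, TPX2 (-1.17 ± 0.26), a spindle factor, and FOXM1, the transcription factor of mitotic genes (-0.95 ± 0.20), fell. In all 26 mitosis genes both day 3 libraries lay below both 24 h libraries, against 40.1% of all genes, but not all passed. CDK1 had 75.2 and 73.9 FPKM at day 3 and 81.1 and 102 FPKM at 24 h (-0.28 ± 0.30, adjusted p = 0.473), and BIRC5, survivin, had 67.9 and 68.9 FPKM at day 3 and 74 and 83.6 FPKM at 24 h (-0.20 ± 0.23, adjusted p = 0.506).

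Regulators of the G1 phase moved in both directions. CCND1 had 6.13 and 8.85 FPKM at day 3 and 23.4 and 23.2 FPKM at 24 h (-1.53 ± 0.24, adjusted p = 8.63e-05). CCND2 had 12.2 and 22.1 FPKM at day 3 and 48.9 and 51.1 FPKM at 24 h (-1.54 ± 0.30), and CDK6, the kinase partner of D-type cyclins, fell as well (-1.04 ± 0.18). CDKN1B, the p27 inhibitor, had 15.2 and 11.6 FPKM at day 3 and 5.04 and 7.64 FPKM at 24 h (0.98 ± 0.16, adjusted p = 0.000138), and CCNG2, an unconventional cyclin that restrains division, had 14.4 and 15.5 FPKM at day 3 and 4.63 and 7.01 FPKM at 24 h (1.25 ± 0.20). In the whole list 3 of 17 rose and 5 fell (2 and 4 to 5, the 3 higher falling to 2 with any library left out). Of 14 p53 targets, 3 rose and 3 fell (1 to 2 and 2, with 1 higher without 24 h replicate 2), including SESN1 (0.62 ± 0.12) and PLK2 (-1.62 ± 0.33). The share called was 47.1% in the G1 list and 42.9% among p53 targets, against 37.3% of all genes. With 17.7% of all genes higher, the 3 of 17 higher in the G1 list were near the background.

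Transcription factors of the kidney rose in 7 of 28 cases and fell in 2, a share of 32.1% called, against 37.3% of all genes. The count rested on single libraries. It was 1 higher without day 3 replicate 1, 3 without either 24 h library and 4 without day 3 replicate 2, with 1 to 2 lower, and 1 lower without 24 h replicate 3. The median of 0.07 became -0.0018 with a batch term for 5 libraries that earlier results set apart, and -0.02 without day 3 replicate 1. HNF4A, the proximal tubule regulator, had 14.8 and 11 FPKM at day 3 and 2.86 and 2.54 FPKM at 24 h (1.90 ± 0.55, adjusted p = 0.0103, 0.0561 without 24 h replicate 3 and 0.0766 without day 3 replicate 1). Of tubular ion and water transport genes 8 of 21 rose and 5 fell (4 to 6 and 2 to 3), with a median of 0.46, which was 0.07 under quantile normalization. Both counts fell with any library left out, to 4 higher and 2 lower without 24 h replicate 2, 6 and 2 without 24 h replicate 3, 5 and 3 without day 3 replicate 1 and 4 and 3 without day 3 replicate 2. Beside FXYD2, CA2, the cytosolic carbonic anhydrase, had 1128 and 1118 FPKM at day 3 and 318 and 329.5 FPKM at 24 h (1.79 ± 0.29, adjusted p = 0.000115). ATP1B1, the beta subunit of the sodium pump, had 353 and 303 FPKM at day 3 and 149 and 159.7 FPKM at 24 h (1.08 ± 0.20). WNK4, a kinase that sets distal salt transport, rose (0.65 ± 0.14), and KCNK1, a potassium channel, fell (-0.83 ± 0.21).

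Retinoid genes rose in 5 of 10 tested members and none fell (4 and none), with a median of 0.82. RBP4, the plasma carrier of retinol, had 223 and 251 FPKM at day 3 and 25 and 29.7 FPKM at 24 h (3.07 ± 0.52, adjusted p = 0.000177). DHRS3, which turns retinal back to retinol, had 20.2 and 36 FPKM at day 3 and 3.59 and 2.65 FPKM at 24 h (2.78 ± 0.27). RDH10, which makes retinal, had 90.4 and 71.1 FPKM at day 3 and 22.8 and 24.3 FPKM at 24 h (1.72 ± 0.32), and LRAT, which stores retinol as esters, rose by 1.20 ± 0.32. Enzymes of both directions of the pathway thus rose together with the carrier. ALDH1A1, which makes retinoic acid, had 659.9 and 663 FPKM at day 3 and 289 and 295 FPKM at 24 h (1.18 ± 0.36, adjusted p = 0.0143), a call that ended with any of the 4 libraries left out (adjusted p of 0.0577 to 0.0711).

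Among organic ion, amino acid and sugar transporters 3 of 16 rose and 8 fell (2 to 3 and 7). The amino acid carriers moved down together: SLC7A5, the large neutral amino acid exchanger, had 34.1 and 33.8 FPKM at day 3 and 116 and 102 FPKM at 24 h (-1.65 ± 0.20, adjusted p = 1.15e-05). Its heavy chain SLC3A2 (-1.28 ± 0.20), the glutamine carrier SLC1A5 (-1.32 ± 0.18) and the cystine carrier SLC7A11, given above, fell too. ABCC4, an exporter of organic anions and cyclic nucleotides, fell by 1.25 ± 0.18.

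Among the called genes of adhesion, contractility and the mesenchymal list, more fell than rose. VIM, vimentin, had 362 and 453 FPKM at day 3 and 1344 and 1390.0 FPKM at 24 h (-1.75 ± 0.23, adjusted p = 2.44e-05). Of 17 mesenchymal markers 7 fell and 2 rose (5 to 6 and 1 to 2, with 1 higher without 24 h replicate 3 or day 3 replicate 2), with a median of -0.48. TGFBI, a secreted adhesion protein, was one of the 2 that rose, with 23 and 18.3 FPKM at day 3 and 7.47 and 5.24 FPKM at 24 h (1.57 ± 0.24). SERPINE2, a protease inhibitor (-1.53 ± 0.27), and DPYSL3 (-1.25 ± 0.27), a cytoskeletal adaptor, fell. Of 29 actin cytoskeleton genes 13 fell and 2 rose (8 to 11 and 1 to 2), with 8 lower without 24 h replicate 3 and 1 higher without 24 h replicate 2 or day 3 replicate 1. FLNA, filamin A, which crosslinks actin, had 38.8 and 45.1 FPKM at day 3 and 98 and 93.5 FPKM at 24 h (-1.17 ± 0.16, adjusted p = 3.68e-05). ACTN1 (-1.18 ± 0.18), an actin crosslinker, TPM4 (-1.18 ± 0.17), a tropomyosin, and TAGLN2 (-0.86 ± 0.13) fell alongside. RHOC, a small GTPase of contractility, rose, with 134 and 111 FPKM at day 3 and 51.4 and 59 FPKM at 24 h (1.13 ± 0.20).

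YAP and TAZ targets fell in 8 of 18 members and rose in none (5 to 9 and none, 5 without day 3 replicate 1). The share of this list called was 44.4%, against 37.3% of all genes. F3, tissue factor, had 25.6 and 20.2 FPKM at day 3 and 97.5 and 87.7 FPKM at 24 h (-1.98 ± 0.21, adjusted p = 3.09e-06), CYR61 fell by 1.43 ± 0.34 and FJX1 by 1.45 ± 0.26. Of 25 integrin and focal adhesion genes 7 fell and 1 rose (4 to 8 and 0 to 1), a share of 32% called, against 37.3% of all genes, with 4 lower without day 3 replicate 1 and none higher without 24 h replicate 2 or day 3 replicate 2. ITGA3, a laminin-binding integrin chain (-1.11 ± 0.20), and ZYX, zyxin (-0.997 ± 0.19), fell. In the basement membrane list 2 of 14 rose and 4 fell, with 1 higher without any one library, and 1 lower without 24 h replicate 2 or day 3 replicate 2. Its share called was 42.9%, against 37.3% of all genes. COL18A1, which carries endostatin, had 25.5 and 27.2 FPKM at day 3 and 7.37 and 4.32 FPKM at 24 h (2.04 ± 0.43, adjusted p = 0.00114). The paired collagen IV chains had lower values. COL4A1 had 0.617 and 0.679 FPKM at day 3 and 4.26 and 1.55 FPKM at 24 h (-1.15 ± 0.46, adjusted p = 0.0532), and COL4A2 had 0.397 and 0.551 FPKM at day 3 and 4.22 and 1.39 FPKM at 24 h (-1.26 ± 0.46, adjusted p = 0.0372). The COL4A2 call was lost without 24 h replicate 2 (adjusted p = 0.364), day 3 replicate 1 (0.142) or day 3 replicate 2 (0.0901), with no filter (0.0617), in the fit on wild-type libraries (0.051) and with the batch term (0.0603). Both chains were low in both day 3 libraries, and the 24 h libraries lay far apart.

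NF-kB targets and cytokines fell in 14 of 18 tested members and rose in none, with a median of -1.10, the lowest of the lists with 10 or more members tested. With a library left out 7 to 9 were lower, with 8 without day 3 replicate 1, 7 without 24 h replicate 2 and 9 without either other library, and the median stayed at -1.12 to -1.10. PTGS2, the inducible prostaglandin synthase, had 6.72 and 5.8 FPKM at day 3 and 32.4 and 36.2 FPKM at 24 h (-2.28 ± 0.40, adjusted p = 0.00024). CSF2, the cytokine GM-CSF, had 0.515 and 1.24 FPKM at day 3 and 9.72 and 6.16 FPKM at 24 h (-2.25 ± 0.42). TNFAIP3, a feedback inhibitor of NF-kB (-1.45 ± 0.26), NFKB2, a subunit (-1.34 ± 0.21), and TNFAIP2 (-1.10 ± 0.18) fell.

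Immediate early and AP-1 genes did not move as a block. Of 17 tested, 10 fell and 3 rose (5 to 8 and 2 to 3, with 5 lower without either 24 h library or day 3 replicate 2). FOSL1, a FOS-family subunit, had 2.09 and 2.04 FPKM at day 3 and 13.9 and 14.2 FPKM at 24 h (-2.30 ± 0.33, adjusted p = 5.14e-05), MYC had 18.4 and 22.9 FPKM at day 3 and 70.0 and 63.6 FPKM at 24 h (-1.65 ± 0.24), and KLF6 fell by 1.07 ± 0.24. EGR1, an early growth response factor, rose instead, with 56.9 and 43 FPKM at day 3 and 27.8 and 15.9 FPKM at 24 h (1.19 ± 0.23, adjusted p = 0.000579). FOS rose to 34.1 and 24.8 FPKM at day 3, against 14.1 and 14 FPKM at 24 h (1.00 ± 0.22, adjusted p = 0.00181). In the 4 day 0 libraries EGR1 ran from 92.4 to 133 FPKM and FOS from 127 to 179 FPKM, above both later groups.

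Among growth factor genes EGF had 66.5 and 76 FPKM at day 3 and 18.6 and 20.6 FPKM at 24 h (1.81 ± 0.22, adjusted p = 1.15e-05), while DUSP4, a phosphatase of ERK (-1.15 ± 0.19), and PHLDA1 (-1.11 ± 0.25), which ERK signalling induces, fell. That list had 2 of 22 higher and 7 lower (1 to 2 and 3 to 5, with 4 lower without 24 h replicate 2, 3 without 24 h replicate 3 or day 3 replicate 1, and 1 higher without 24 h replicate 3 or day 3 replicate 2). Its share called, 40.9%, was near the 37.3% of all genes. Of 20 TGF-beta, activin and BMP genes 2 rose and 8 fell (1 to 2 and 7 to 8, with 1 higher without 24 h replicate 2 or day 3 replicate 1). The ligands TGFB2 (-1.86 ± 0.33), INHBA (-1.32 ± 0.23) and BMP4 (-1.22 ± 0.20) and the ligand-binding protein LTBP1 (-1.02 ± 0.18) fell. ID3, an inhibitor of helix-loop-helix factors and a BMP target, rose, with 191 and 204 FPKM at day 3 and 59.9 and 74.5 FPKM at 24 h (1.55 ± 0.28). Of 16 Wnt and Notch genes 4 fell and none rose (3 to 4 lower), a share of 25% called, against 37.3% of all genes. Among those that fell were WNT7B (-1.17 ± 0.19), NOTUM, which inactivates Wnt proteins (-0.82 ± 0.17), and JAG1, a Notch ligand (-0.71 ± 0.16). Interferon-stimulated genes were near the background, with 2 of 23 higher and 6 lower (0 to 1 and 3 to 5, with 3 lower without 24 h replicate 3 or day 3 replicate 1 and none higher without 24 h replicate 2 or day 3 replicate 2), led by RSAD2 (-2.05 ± 0.41) and CMPK2 (-1.13 ± 0.24).

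**Figure D4:**
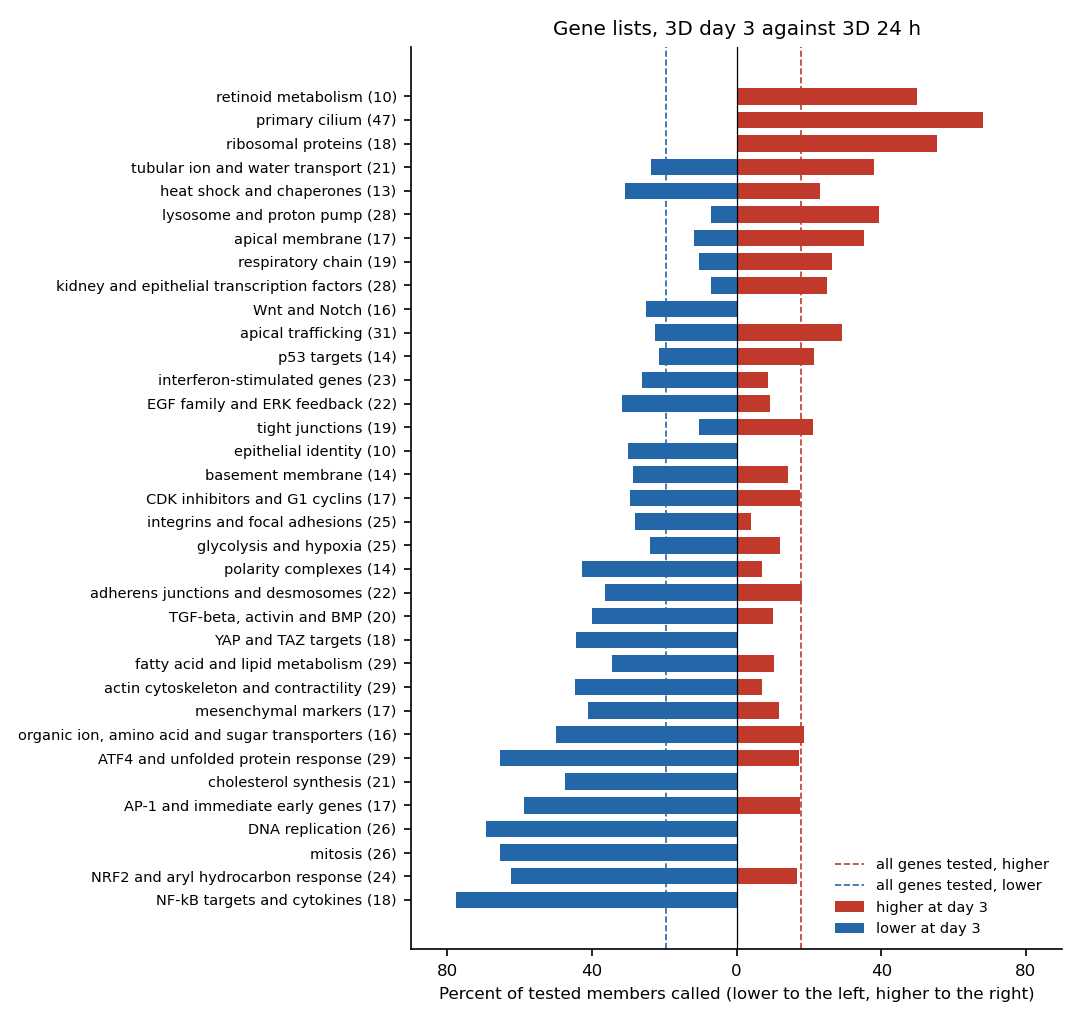
Bars give the percent of tested members of each gene list with at least 10 members tested (number in parentheses) called higher (red, right) or lower (blue, left) at day 3 than at 24 h, ordered by median difference. Dashed lines mark all genes tested, 17.7% higher and 19.6% lower; primary cilium and ribosomal protein genes reach furthest to the right, and NF-kB targets and DNA replication furthest to the left.

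In the NRF2 and aryl hydrocarbon response list 15 of 24 members fell and 4 rose (11 to 14 and 3 to 4), with a median of -1.05. The list also holds TXNIP and the arrestin-domain genes ARRDC3 and ARRDC4, which are not taken here as targets of either factor. OSGIN1, an oxidative stress growth inhibitor, had 0.768 and 0.77 FPKM at day 3 and 4.77 and 5.12 FPKM at 24 h (-1.75 ± 0.18, adjusted p = 2.01e-06). NQO1, the quinone reductase, had 372 and 312 FPKM at day 3 and 1306 and 1443 FPKM at 24 h (-2.01 ± 0.39). GCLM, of glutathione synthesis, fell by 1.33 ± 0.19. CYP1A1, the monooxygenase of the aryl hydrocarbon response, had 20.8 and 12.8 FPKM at day 3 and 41.2 and 40.9 FPKM at 24 h (-1.28 ± 0.42, adjusted p = 0.0214), against 0.513 to 3.87 FPKM at day 0. Its adjusted p was 0.0888 without 24 h replicate 2, 0.079 without 24 h replicate 3 and 0.169 without day 3 replicate 2. The 4 that rose were not antioxidant enzymes: ARRDC3, an arrestin-domain adaptor, had 35.2 and 38.9 FPKM at day 3 and 12.3 and 17.6 FPKM at 24 h (1.28 ± 0.17), beside TXNIP, the thioredoxin inhibitor (1.88 ± 0.28), ARRDC4 (1.01 ± 0.21) and the exporter ABCC2 (1.15 ± 0.34, with an adjusted p of 0.0675 without 24 h replicate 2 and 0.0631 without day 3 replicate 2).

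The ATF4 and unfolded protein response list fell in 19 of 29 members and rose in 5 (12 and 1 to 4). The lower count was 12 with any of the 4 libraries left out, and the higher count was 1 without 24 h replicate 2 and 2 without 24 h replicate 3 or day 3 replicate 1. The aminoacyl-tRNA synthetases MARS (-1.13 ± 0.16), GARS (-0.96 ± 0.16) and AARS (-0.89 ± 0.13), which charge tRNAs with amino acids, fell. SHMT2, of mitochondrial one-carbon metabolism, had 19.9 and 21.5 FPKM at day 3 and 53.9 and 54.5 FPKM at 24 h (-1.35 ± 0.21, adjusted p = 8.41e-05). CRELD2, an endoplasmic reticulum chaperone gene, had 8.93 and 7.32 FPKM at day 3 and 22.6 and 27.6 FPKM at 24 h (-1.52 ± 0.19).

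Of 21 cholesterol synthesis genes 10 fell and none rose (6 to 8 lower), with 6 lower without 24 h replicate 2 or day 3 replicate 2. CYP51A1, the sterol demethylase (-1.04 ± 0.21), and INSIG1, which restrains sterol synthesis (-1.03 ± 0.24), fell. Of 29 fatty acid and lipid genes 10 fell and 3 rose (6 to 7 and 0 to 1, with 6 lower without either 24 h library, none higher without 24 h replicate 2 or either day 3 library and 1 higher without 24 h replicate 3). The share called was 47.6% in the cholesterol list and 44.8% in the fatty acid and lipid list, against 37.3% of all genes. FASN, fatty acid synthase, had 22.2 and 25.4 FPKM at day 3 and 74.2 and 68.8 FPKM at 24 h (-1.55 ± 0.21), with ACLY (-1.41 ± 0.26) and ACACA (-1.01 ± 0.16), which feed it, lower too. In glycolysis and hypoxia 6 of 25 fell and 3 rose (5 to 6 and 1 to 2, with 1 higher without day 3 replicate 1), and the share called, 36%, was near the 37.3% of all genes. PFKP, a phosphofructokinase, had 23.6 and 26.7 FPKM at day 3 and 89.9 and 89.1 FPKM at 24 h (-1.79 ± 0.19, adjusted p = 2.53e-06), and HK2, hexokinase, fell by 2.00 ± 0.38 and SLC2A1, the glucose carrier GLUT1, by 1.23 ± 0.25.

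Of 18 ribosomal protein genes 10 were called higher and none lower, with a median of 0.64. That count depended on single libraries: it was 0 without 24 h replicate 2, 3 without day 3 replicate 2, 6 without day 3 replicate 1 and 9 without 24 h replicate 3, while the median lay between 0.48 and 0.80 over these and was 0.35 under quantile normalization. RPL15 had 1073 and 942 FPKM at day 3 and 483 and 608 FPKM at 24 h (0.89 ± 0.26, adjusted p = 0.0123, 0.117 without 24 h replicate 2 and 0.0856 without day 3 replicate 1). How reads were divided between these genes and near-identical copies is not given in the sources used here, so their values are uncertain. Of 28 lysosome and proton pump genes 11 rose and 2 fell (7 to 9 and 0 to 1), with 7 higher without either 24 h library or day 3 replicate 2. MCOLN1, a calcium channel of lysosomes, had 16.9 and 11.7 FPKM at day 3 and 6.65 and 6.18 FPKM at 24 h (1.03 ± 0.19, adjusted p = 0.000356). NPC2, a cholesterol carrier in the lysosome, had 247 and 237 FPKM at day 3 and 121 and 126 FPKM at 24 h (0.97 ± 0.19), and LAMP2, a lysosomal membrane protein (0.76 ± 0.16), rose. Of 19 nuclear genes of the respiratory chain 5 rose and 2 fell (2 to 5 and 1 to 2, with 2 higher without 24 h replicate 2 or day 3 replicate 2 and 1 lower without 24 h replicate 3 or day 3 replicate 2), while 7 of the 13 mitochondrially encoded mRNAs rose and none fell. The share of these nuclear genes called, 36.8%, was near the 37.3% of all genes. Day 3 replicate 1 lay above replicate 2 in each mitochondrially encoded mRNA. ND1, not called, had 4068 and 2394 FPKM at day 3 and 2753 and 2967 FPKM at 24 h. In 9 of these mRNAs both day 3 libraries lay above both 24 h libraries, against 35.1% of all genes. Counts with a library left out are not given for them. Of the heat shock genes, given next, 53.8% were called, against 37.3% of all genes. Heat shock genes gave 3 higher and 4 lower of 13 (0 to 2 and 2, none higher without 24 h replicate 2 or day 3 replicate 1), and their median of 0.43 turned to -0.20 with the batch term and to -0.08 without day 3 replicate 1.

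The step between 24 h and day 3 was then set beside its neighbours in the same fit and over the same genes. Between day 3 and day 5, 41 genes were called (0.382%), 5 higher (0.0466%) and 36 lower (0.335%) at day 5, and between day 0 and 24 h, 145 were called (1.35%), 79 higher (0.736%) and 66 lower (0.615%) at 24 h. The comparisons share the day 3 or the 24 h libraries, so their counts are given side by side. They do not measure the size of a step, since the adjustment is milder where more genes differ. IGFBP4, at 0.97 ± 0.25 from day 3 to day 5, had an adjusted p of 0.0792. AKIRIN2, at 0.53 ± 0.16 from 24 h to day 3, had one of 0.0146. The filter also used the day 3 and 24 h libraries alone, so genes expressed only at day 0 or day 5 were not tested. The difference of the steps, (day 3 minus 24 h) minus (day 5 minus day 3), passed in 278 genes (2.59%), 202 above 0 (1.88%) and 76 below 0 (0.708%). The larger side turned with the scaling, to 427 above and 470 below 0 under quantile normalization and 375 above and 637 below 0 under median-ratio scaling. Because the day 3 libraries enter both steps, this test leans on them, and it passed in 7 genes without day 3 replicate 1, 98 without day 3 replicate 2, 23 without 24 h replicate 2, 44 without day 5 replicate 3 and 594 without day 5 replicate 2. LGALS4 was the 1 named gene whose step difference still passed without day 3 replicate 1. It had 0.644 and 0.577 FPKM at 24 h, 3.31 and 3.17 FPKM at day 3 and a mean of 1.87 FPKM at day 5 (step difference 1.97 ± 0.26, adjusted p = 0.000545).

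The list medians, taken in each library against the mean of the 24 h libraries, gave different courses. Primary cilium genes stood at -0.19 to 0.02 in the 4 day 0 libraries, 0.74 and 0.72 at day 3, then 0.75 and 0.62 at day 5, and 0.84 with 0.71 at day 8. Mitosis genes stood at -0.20 to 0.15 at day 0, -0.69 and -0.85 at day 3, then -1.13 and -1.55 at day 5, and -1.79 with -1.80 at day 8. The cilium median was thus about as high at day 3 as later, while the mitosis median went on down. NRF2 and aryl hydrocarbon genes were at -0.78 to -0.30 at day 0, -0.95 and -1.26 at day 3, then -1.44 and -1.49 at day 5, with the 24 h libraries above all of these. Retinoid genes were at -0.51 to -0.25 at day 0, 0.85 and 0.76 at day 3, then 0.43 and 0.42 at day 5, with both day 3 libraries above all of these. Over all genes tested, the median ran from -0.155 to 0.01 at day 0, -0.03 and -0.02 at day 3, then -0.12 and -0.16 at day 5.

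**Figure D5:**
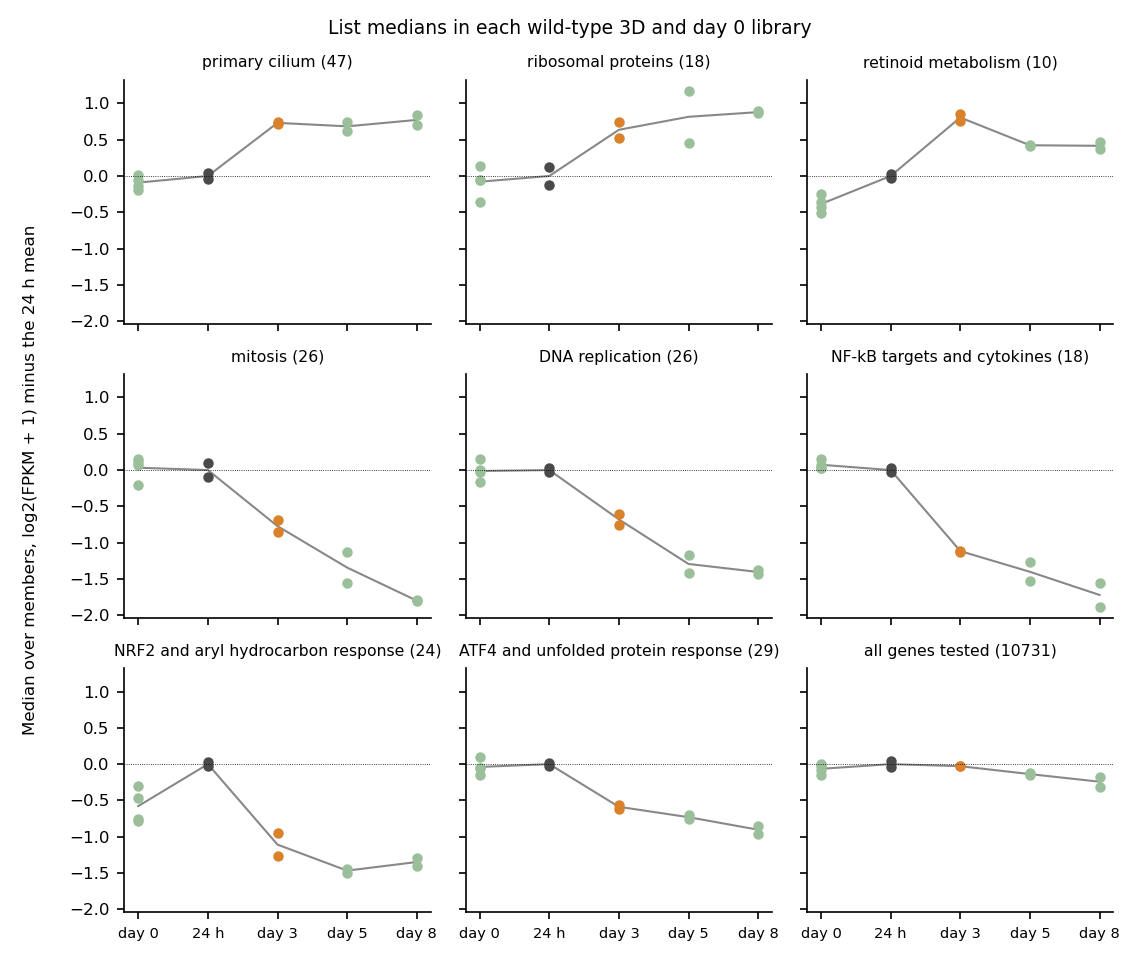
Each dot is 1 wild-type library, with the median over the tested members of a list (number in parentheses) of log2(FPKM + 1) minus the mean of the 24 h libraries on the y axis and culture time, from day 0 to day 8, on the x axis; lines join group means, day 3 is orange and 24 h dark grey. Both day 3 libraries sit above 0 for primary cilium, ribosomal protein and retinoid genes and below 0 for the 5 lists that fell, close to 0 for all genes tested.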

How the data were processed

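Each library's file holds FPKM per gene as deposited by the authors, and their processing notes name HISAT2 2.1.0 and Cufflinks 2.2.1, per the submitters' processing notes, with the builds canFam3 and CanFam3.1 and no roles. Per the labels' protocols, a stranded mRNA kit was used. A limma 3.58.1 trend fit (R 4.3.3) of log2(FPKM + 1) took 1 mean per group over 29 libraries in 13 groups, with 16 residual degrees of freedom. Tests were 2-sided, p-values were adjusted by Benjamini and Hochberg's method across all 10731 genes, and calls needed an adjusted p under 0.05. The 39 gene lists are described by counts and medians, with no set test. By rule, the text names the 12 largest increases and the 12 largest decreases (called, above 0 in all 4 libraries, groups apart, higher group averaging 5 FPKM or more), up to 5 members per list with the smallest adjusted p under 0.05, and VIM, PODXL, CDH1, CDH16, CLDN2, PDZK1, FXYD2, DENND5A and AVL9. Chosen after their values were seen were FOXJ1, KIF3A, CDK1, BIRC5, EZR, COL4A1, HNF4A, ARRDC4, ABCC2, TXNIP, NQO1, CYP1A1, TIMM13, TMSB10 and the genes of the closing observations. Some genes that the rule names are not reported here. Lists and members were chosen with earlier results of these data known. The alternatives varied scaling (quantile, median-ratio), pseudocount (0.1), the filter, the libraries fitted, a batch term, and each library left out. The labels name no batch: the term covers 5 wild-type libraries (the 3D day 14 library and the first replicates of 2D day 4, 3D day 3, 3D day 8 and day 0) that earlier results set apart, partly on TIMM13 and TMSB10. Their relative depth was 0.449 to 0.719, against 0.826 to 1.102 in the other wild-type libraries. Python 3.11.15, pandas 2.3.3, numpy 2.4.6 and matplotlib 3.10.9 made the summaries and plots.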

Additional observations from a re-analysis of the deposited data

Results flagged for a closer look

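In 29 of 182 named genes the change between 24 h and day 3 differed from the change between day 3 and day 5. The test was limma's test of the difference of the steps at an adjusted p under 0.05, which 2.59% of all genes tested passed. Most named genes were chosen by the day 3 minus 24 h difference, which enters this test, so their passing was made likelier. The day 3 libraries enter both steps, so a library that is off at day 3 moves this difference in 1 direction. The values below are differences of steps on the log2(FPKM + 1) scale.

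Among apical, junction and transport genes the difference was 1.97 in LGALS4, 1.80 in ANXA13, 1.06 in VAMP7, 1.33 in ILDR1, 0.81 in TJP3, 1.22 in CTNNB1 and 1.50 in ATP1B1. In cilium genes it was 1.68 in ARL3 and 1.23 in TMEM67. Among genes of growth, cell cycle and contractility it was 1.60 in EGF, 1.50 in FOS, 1.37 in CCNG2, 1.37 in CDKN1B, 1.02 in SESN1, 1.71 in TGFBI and 1.32 in RHOC. Of the largest increases it was 3.59 in PPP1R1B, 3.01 in RENBP, 2.46 in SAMD11 and 2.41 in APOBEC1.

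Below 0, amino acid carriers and stress genes stood at -2.19 in SLC7A11, -1.39 in SLC7A5, -1.39 in SLC1A5, -1.28 in CRELD2 and -1.80 in OSGIN1. The others were RAP2B at -2.59, MYC at -1.85, KRT80 at -1.76 and PFKP at -1.37. No sign changed under the alternatives tried. Of the 29, 29 passed under both scalings, 22 with the pseudocount of 0.1, 2 when the groups were fitted alone, 1 (LGALS4) without day 3 replicate 1 and 9 without day 3 replicate 2. Without 24 h replicate 2 it was 4, without 24 h replicate 3 it was 21, without day 5 replicate 2 it was 27 and without day 5 replicate 3 it was 8.

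VIM had 1333 FPKM in 1 of the 4 day 0 libraries, apart from 1643, 1682 and 1702 FPKM in the others, a gap of 0.839 of the range, past Dixon's limit for 4 samples. The same limit was applied to CYP1A1, NQO1, CTNNB1, CLDN2, EGR1, FOS and HNF4A, and none of these passed it. Chance sets apart about 1 in 20 such groups, and more often at least 1 when several genes are checked. The day 0 libraries do not enter the difference between day 3 and 24 h.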

How the results depend on the processing

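The count of genes that differed between day 3 and 24 h was 3926 to 4745 under the scalings, the pseudocount, no filter, the smaller fits and the batch term, and 2367 (without 24 h replicate 2) to 2938 (without day 3 replicate 2) with a library left out. The step difference moved more: 897 genes under quantile normalization, 1012 under median-ratio scaling, 183 with a pseudocount of 0.1, 20 with the groups alone, and 7 to 594 with a library left out. The batch term gave 327, with 166 above and 161 below 0. The cause was not tested. TIMM13 and TMSB10, not called at -3.05 and -1.32, turned to 0.15 and 1.26 with the batch term. The libraries of that term were set apart partly on these genes, so their turn under it is no separate check. Without day 3 replicate 1 they stood at 0.75 and 0.56, and without day 3 replicate 2 at -6.86 and -3.20. Day 3 replicate 1 lists them at 0 and 223 FPKM. Of 212 named and chosen genes, 16 to 26 lost their call with a library left out and at most 4 under any other alternative. List counts moved by over 1.5 times in 11 to 17 of 39 lists with a library left out. No paired analysis was possible because the day 3 and 24 h groups share only replicate number 2. Depth limits genes of few FPKM, and with 2 libraries a group a p that misses the threshold does not show equal levels.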

Other observations

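The following genes were chosen after their values were seen. FOXJ1 had 9.78 and 8.53 FPKM at day 3 and 1.17 and 0.842 FPKM at 24 h (log2 difference 2.34 ± 0.48, limma adjusted p = 0.000885). DYNLRB2, a dynein light chain, had 19.9 and 30.9 FPKM at day 3 and 4.57 and 5.01 FPKM at 24 h (2.16 ± 0.41). TTC26, an intraflagellar transport subunit, had 5.34 and 5.17 FPKM at day 3 and 1.39 and 1.48 FPKM at 24 h (1.36 ± 0.12). All 3 are cilium genes, high in both day 3 libraries. GJB1, a gap junction connexin, had 24.3 and 20.9 FPKM at day 3 and 2.69 and 3.41 FPKM at 24 h (2.54 ± 0.37). MSLN, mesothelin, had 17 and 16.9 FPKM at day 3 and 2.64 and 3.67 FPKM at 24 h (2.12 ± 0.23), and IGFBP4, which binds insulin-like growth factors, had 54.9 and 62.5 FPKM at day 3 and 10.5 and 11.1 FPKM at 24 h (2.34 ± 0.25).

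ORC3, an origin recognition subunit, had the smallest adjusted p of all genes tested (3.34e-07), with 49.3 and 49 FPKM at day 3 and 13.9 and 14.7 FPKM at 24 h (1.72 ± 0.14). It rose, while 18 of the 26 replication genes listed fell. RARS2, the mitochondrial arginyl-tRNA synthetase, had 31.5 and 33.1 FPKM at day 3 and 7.11 and 7.96 FPKM at 24 h (1.97 ± 0.18, adjusted p = 1.21e-06). The genes are neighbours on chromosome 12 in the RefSeq table of another build (UU_Cfam_GSD_1.0), so shared reads cannot be told apart from separate changes. Their flanking genes differed less, SLC35A1 by 0.72 ± 0.21 and AKIRIN2 by 0.53 ± 0.16, and both lost their call with single libraries left out.

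SPP1, osteopontin, had 14006 and 15432 FPKM at day 3 and 2893 and 3588 FPKM at 24 h, but did not pass (2.19 ± 3.14, adjusted p = 0.609). It is listed at 0 in 1 day 5 and 1 day 8 library, where a 0 may be a failed estimate rather than absent RNA, and the 4 libraries alone gave an adjusted p of 0.00928. S100A4 had 174 and 162 FPKM at day 3 and 36.8 and 52 FPKM at 24 h. Its limma adjusted p was 0.163 in the fit over all libraries, 0.00365 in the wild-type libraries alone and 0.00367 in the 4 alone. In 12 genes called lower, 6 without a symbol, both day 3 libraries are listed at 0. The reverse, 0 in both 24 h libraries, held in 1 gene called higher. Such genes passed the expression filter only through the other group, so their direction and lack of overlap were fixed in advance. A 0 may also be a failed estimate. Among the 12 is SCARNA24 (12.7 and 13.6 FPKM at 24 h), whose call was lost with any of the 4 libraries left out.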
